A study of Mus musculus with 24 samples.

Results

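Epiblast stem cells (EpiSCs) are mouse pluripotent cells in the primed state, derived from the epiblast after implantation. The lines 129Ba1 and 129Ba2 are EpiSC lines that were both established with a Wnt inhibitor, and each was hybridised to 2 single-colour Agilent expression arrays. They were chosen by their titles and make up 4 of the 24 arrays of the series. The other arrays hold the EpiSC lines BNa17, also established with a Wnt inhibitor, 129C1 and Wt1, 129C1 treated with the Wnt inhibitor IWP2, the mouse embryonic stem cell (mESC) lines R1 and J1, J1 treated with 2i, and embryonic tissue from E5.5, E6.5 and E7.5. All stem cell lines had been grown on feeder layers and were parted from the feeders before total RNA was taken, and the labels give neither the sex of a line nor the kind of feeder. The labels do not say whether the 2 arrays of a line came from separate cultures, so the spread between replicate arrays may be technical. The p-values rest on that spread pooled over all 12 groups of the series, and not on these 4 arrays alone.

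EpiSCs depend on FGF and Activin or Nodal signalling and express Pou5f1 and Sox2 together with epiblast genes such as Fgf5 and Otx2, while most naive genes of mESCs are low. Wnt inhibitors are added because Wnt signals push EpiSCs towards primitive streak fates. Feeder layers are commonly mouse fibroblasts, which secrete collagens, small proteoglycans and cytokines. Genes such as Col1a1 (a chain of type I collagen) and Dcn (the proteoglycan decorin) are therefore used here as markers of fibroblast RNA, though they are not specific to it. The comparison asked how much of the difference between the 2 lines lies in fibroblast genes and what remains on the autosomes.

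A level is given here as the log2 signal relative to the 75th percentile of its array, and a difference as 129Ba1 minus 129Ba2 on that scale with its standard error. All 4 arrays lay on the same slide. Feature Extraction called 48.0% and 49.4% of probes well above background on the 129Ba1 arrays and 45.8% and 45.9% on the 129Ba2 arrays. The 129Ba1 arrays correlated at r = 0.992 over genes and the 129Ba2 arrays at r = 0.988, and r between arrays of different lines was 0.972 to 0.988, so that the closest arrays of the 2 lines were as alike as the replicates of 129Ba2. Calls needed a difference of at least 2-fold and an adjusted p below 0.05 (limma, with Benjamini-Hochberg adjustment), and 180 of 15090 tested genes were called (1.19%). Of these, 121 rose in 129Ba1 (0.802%) and 59 fell (0.391%). A total of 2639 genes had an unadjusted p below 0.05, and the median difference over all tested genes was -0.08. The number of calls depended on single arrays: it was 16 without 129Ba1 replicate 1, 78 without 129Ba1 replicate 2, 487 without 129Ba2 replicate 1 and 12 without 129Ba2 replicate 2. Rises made up 67.2% of the calls, 88.0% with normexp background correction and 78.0% with quantile normalization, and a fit of the 8 arrays of their slide alone called 7 genes. By class, the rises were 3 members of the fibroblast lists, 112 other autosomal genes, 3 X-linked genes and 3 Y-linked genes, and the falls were 56 autosomal genes and 3 X-linked genes.

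**Figure D1:**
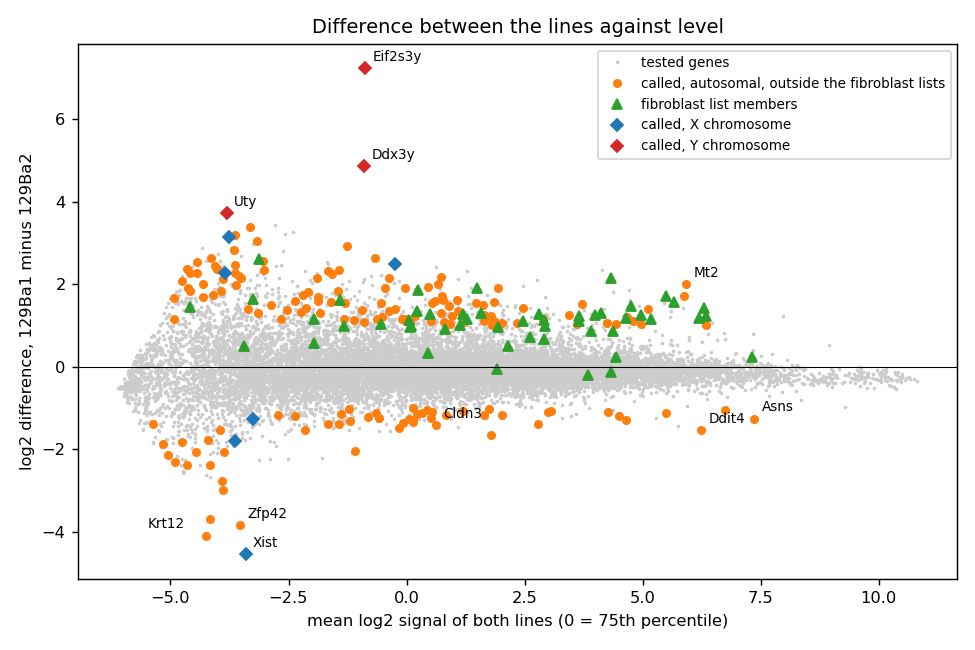
Difference between the lines (129Ba1 minus 129Ba2, log2) against their mean log2 signal, where 0 is the 75th percentile of an array. Grey points are the 15090 tested genes, orange points the 168 called autosomal genes outside the fibroblast lists, green triangles the 51 fibroblast list members, and diamonds the called X-linked (blue) and Y-linked (red) genes. Eif2s3y lies at 7.23, Ddx3y at 4.85 and Xist at -4.56, with the autosomal Krt12 near Xist at -4.10. Of the 51 fibroblast members 48 lie above 0.

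Fibroblast genes were higher in 129Ba1 almost throughout, at about 2-fold, but few passed the test. Col1a1 had levels of 5.97 and 5.55 in 129Ba1 and of 5.02 and 4.19 in 129Ba2. Dcn had levels of 5.29 and 5.16 in 129Ba1 and of 4.38 and 3.73 in 129Ba2. For both genes each 129Ba1 array was above each 129Ba2 array, and within 129Ba2 replicate 1 was above replicate 2. The difference was 1.16 ± 0.51 for Col1a1 (adjusted p = 0.255) and 1.17 ± 0.36 for Dcn (adjusted p = 0.104), and neither was called. In bulk samples more fibroblasts and more RNA per fibroblast cannot be told apart.

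All 51 members of 3 fibroblast lists (25 matrix genes, 10 transcription factors and surface proteins, 16 contractile and secreted proteins) were measured and tested. The difference was positive for 48 of them and negative for 3, with a median of 1.15 against -0.08 over all tested genes. It was 2-fold or more for 31 members, and 46 members (90.2%) had both 129Ba1 arrays above both 129Ba2 arrays, which held for 23.7% of all tested genes. In 47 members (92.2%) 129Ba2 replicate 1 was above replicate 2, against 36.5% of all tested genes. Among all genes at least 2-fold higher in 129Ba1 the share was 82.0%, so this order was common in genes higher in 129Ba1. The 3 lists were alike, with medians of 1.11, 1.19 and 1.14. In the E5.5 and E6.5 epiblast 24 of the 51 members were well above background on all 4 arrays, Col1a1, Dcn, Thy1 and Twist1 among them. Detection of a member alone is thus not specific to feeder RNA. The 3 negative members were the chemokine Cxcl12 (-0.21), the calponin Cnn1 (-0.14) and the microfibril protein Mfap4 (-0.05), none of them called.

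The called members were Csf1, Lox and Igfbp4. These were 3 of the 51 members, while called rises made up 0.802% of all tested genes. Csf1, the growth factor of macrophages, had levels of 2.70 and 2.20 in 129Ba1 and of 1.15 and -0.07 in 129Ba2 (1.91 ± 0.39, adjusted p = 0.0326). Lox, the enzyme that cross-links collagen, had levels of 1.36 and 0.99 in 129Ba1 and of -0.28 and -1.08 in 129Ba2 (1.86 ± 0.40, adjusted p = 0.0347). Igfbp4, a carrier of insulin-like growth factors, had levels of 0.09 and -0.13 in 129Ba1 and of -0.85 and -1.24 in 129Ba2 (1.03 ± 0.24, adjusted p = 0.0488). In each of the 3 genes the lowest 129Ba1 array was above the highest 129Ba2 array, which is nearly given by a call and held for 23.7% of all tested genes. The surface protein Thy1 (0.86 ± 0.25, adjusted p = 0.0878) and the transcription factor Twist1 (1.15 ± 0.60, adjusted p = 0.349) were not called. Called members numbered 3 of 51 in the fit described, 21 without 129Ba2 replicate 1, 0 without any other of the 4 arrays, and 18 when the background was corrected with normexp, which adds Dcn to the calls.

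**Figure D2:**
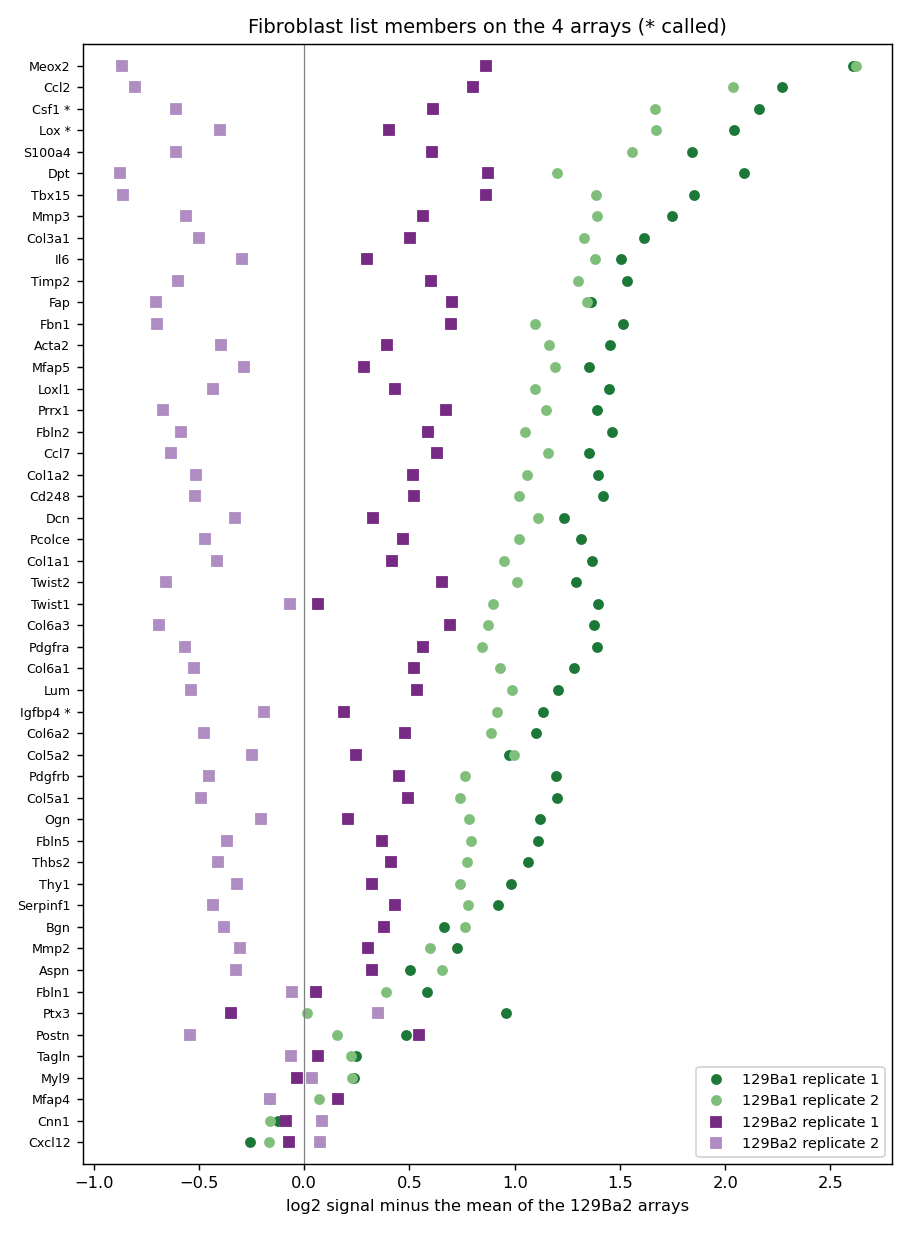
Log2 signal of the 51 fibroblast list members (rows, ordered by their difference) on the 129Ba1 arrays (green circles) and the 129Ba2 arrays (purple squares), each relative to the mean of the 129Ba2 arrays; called genes carry an asterisk. In 46 rows both green circles lie right of both purple squares, and in 47 rows 129Ba2 replicate 1 lies right of replicate 2.

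The summed linear signal of the 51 genes, with 1 for the 75th percentile of an array, was 1343 and 1136 in 129Ba1 and 793 and 491 in 129Ba2. The ratio of the line means (geometric) was 1.98. Within 129Ba2 replicate 1 was 1.61-fold above replicate 2, within 129Ba1 replicate 1 was 1.18-fold above replicate 2, and the gap between the nearest arrays of the 2 lines was 1.43-fold. The spread within 129Ba2 was thus larger than the gap between its nearer array and 129Ba1. The sum is a description without a test; with 2 arrays against 2, an exact permutation test cannot give a two-sided p below 0.333.

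Across the series the 129Ba1 arrays had the highest sums. Wt1 had 620 and 882, BNa17 830 and 547, 129C1 with IWP2 549 and 435, and 129C1 385 and 430. The mESC arrays lay between 307 (J1 with 2i) and 562 (R1). Tissue dissected from embryos, which had met no feeder, had sums from 49.1 to 65.3 in the E5.5 and E6.5 epiblast and of 118 and 112 in the E7.5 ectoderm. The 129Ba2 arrays therefore fell within the range of the other cultured lines, and the 129Ba1 arrays above it.

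**Figure D3:**
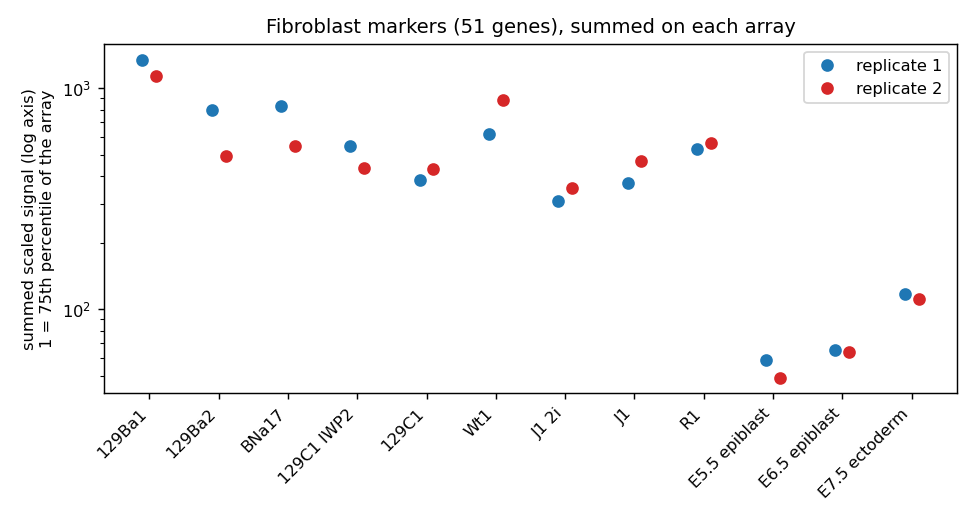
Summed scaled signal of the 51 fibroblast list members on each array (log axis; 1 is the 75th percentile of an array), with replicate 1 in blue and replicate 2 in red. The 129Ba1 arrays are at 1343 and 1136, the 129Ba2 arrays at 793 and 491, the other cultured lines at 307 to 882, and the embryonic tissues at 49.1 to 118.

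The sum also ordered the 4 arrays, from 129Ba1 replicate 1 through 129Ba1 replicate 2 and 129Ba2 replicate 1 to 129Ba2 replicate 2. This order was followed by 41 of the 51 list members and by 10.6% of all tested genes. Since the order was taken from the sum of these same members, their agreement with it was largely built in. Of the 121 genes that rose, 85 (70.2%) followed it too, as did 68.4% of all 713 genes that were at least 2-fold higher in 129Ba1. Of the 59 genes that fell, 38 (64.4%) followed the reverse order, against 45.9% of all 423 genes at least 2-fold lower in 129Ba1 and 59.8% of all genes whose 129Ba1 arrays lay below both 129Ba2 arrays. Among the 86 risen genes that were well above background on at least 1 129Ba2 array, 3 did not follow the fibroblast order within 129Ba2: Cpm (a carboxypeptidase), Nhlh1 (a neural transcription factor) and Xlr3b (an X-linked lymphocyte-regulated gene), which were picked out after their values were seen. Among all 713 genes at least 2-fold higher in 129Ba1, 129Ba2 replicate 1 was above replicate 2 in 82.0%. Since the calls and the order rest on the same arrays, these shares are descriptions, and the part of fibroblast RNA in the calls was not tested.

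A second measure used arrays of other lines. Over the means of the 7 other cultured groups, 12 of the 121 risen genes (9.92%) and 2 of the 59 fallen genes (3.39%) had a Pearson r of at least 0.8 with the mean of Col1a1 and Dcn, against 1.95% of all tested genes. Of the 168 called autosomal genes outside the lists, 122 had an r below 0.5: 69 of the 112 that rose and 53 of the 56 that fell. The same held for 12725 of all 14456 tested autosomal genes outside the lists. That share was larger than among the rises and smaller than among the falls. This measure parts the genes weakly, since 7 points enter each r, Col1a1 and Dcn themselves had r = 0.435, and 11 of the 51 list members reached 0.8. In the 4 arrays of E5.5 and E6.5 epiblast, 33 of the risen genes (27.3%) and 7 of the fallen genes (11.9%) were at background on every array, against 6.75% of all tested genes.

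Several sex chromosome genes were among those that differed most. Eif2s3y, a translation initiation factor on the Y, had levels of 2.61 and 2.86 in 129Ba1 and of -3.50 and -5.49 in 129Ba2. No 129Ba2 array was well above background for it, so its fold is given as a bound (each dim array taken at the dimmest signal that still counts as well above background there, or at its own if that is higher): at least 87.0-fold higher in 129Ba1 (adjusted p = 2.22e-05). Ddx3y, a Y-linked RNA helicase, had levels of 1.49 and 1.55 in 129Ba1 and of -2.59 and -4.06 in 129Ba2 (4.85 ± 0.52, adjusted p = 0.000528). Uty, a Y-linked homologue of the histone demethylase Kdm6a, had levels of -1.89 and -2.01 in 129Ba1 and of -5.71 and -5.62 in 129Ba2, at least 3.41-fold higher in 129Ba1 (adjusted p = 8.27e-05). These 3 genes held their calls when any of the 4 arrays was left out, and Uty lost its call with normexp. Of the other Y genes, Zfy1 was tested and not called (-0.37 ± 0.48, adjusted p = 0.755), and Kdm5d, Usp9y, Zfy2 and Sry were too dim in all groups to be tested.

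Xist, the RNA that coats an inactive X chromosome, went the other way. Its levels were -5.16 and -6.20 in 129Ba1 and -0.65 and -1.60 in 129Ba2, at least 8.33-fold lower in 129Ba1 (adjusted p = 0.0480). The 129Ba1 arrays were not well above background for Xist and both 129Ba2 arrays were. The call stood near the threshold and was lost when any of the 4 arrays was left out and with normexp (adjusted p = 0.0553). The arrays of the lines did not overlap, which held in this direction for 33.5% of all tested genes.

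BNa17 shared the pattern of 129Ba1, with Eif2s3y at 3.36 and 2.88 and Xist at -4.20 and -5.82. The 129C1 line had Xist at 0.20 and 0.62 and Eif2s3y at -5.16 and -5.91, and Wt1 had Xist at -0.12 and 0.66. In 129Ba2 the Ddx3y signal was well above background on replicate 1, which had the higher fibroblast sum, and not on replicate 2. Eif2s3y and Uty were at background on both 129Ba2 arrays, so their order there carries no information. The part of feeder RNA in the faint Ddx3y signal was not tested.

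**Figure D4:**
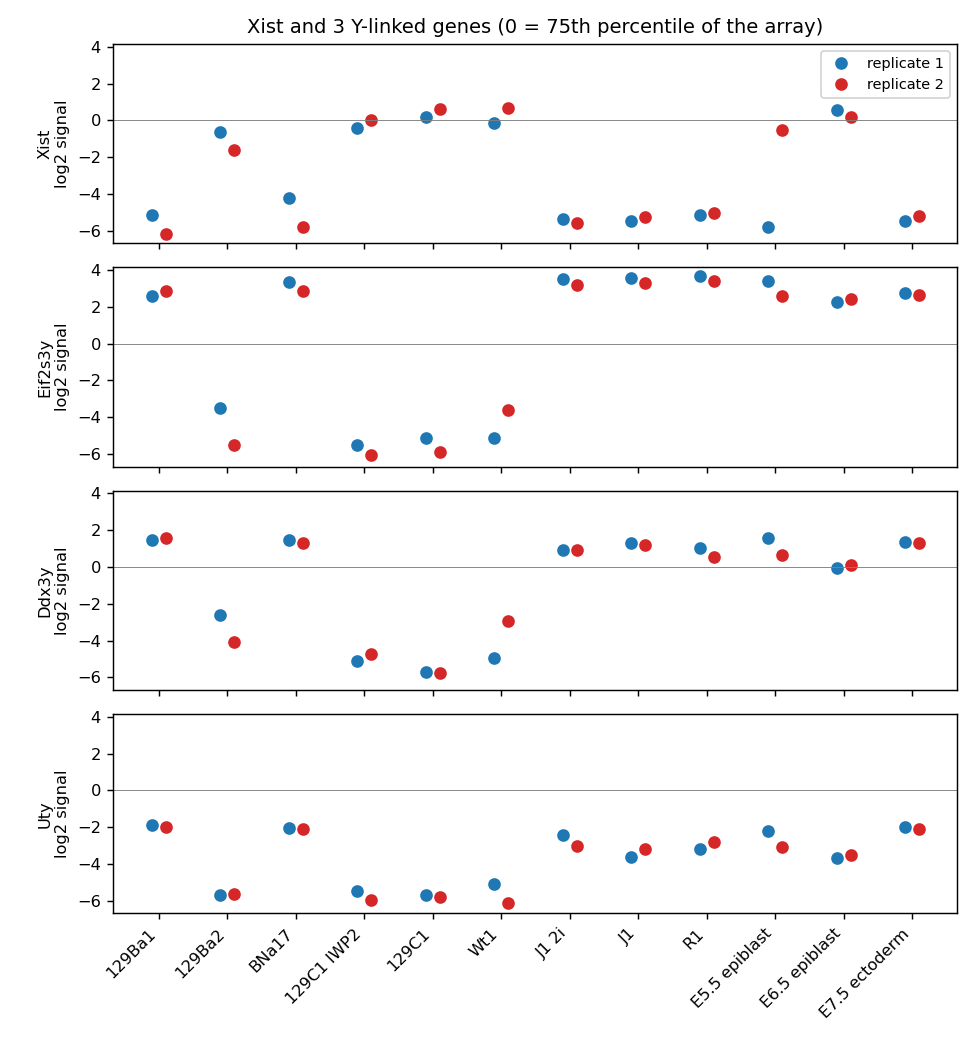
Log2 signal of Xist and of the Y-linked genes Eif2s3y, Ddx3y and Uty on every array (0 is the 75th percentile of an array; replicate 1 blue, replicate 2 red). The 129Ba1 arrays are high in the 3 Y-linked genes and low in Xist (-5.16 and -6.20), and the 129Ba2 arrays are low in the Y-linked genes and higher in Xist (-0.65 and -1.60).

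The X chromosome as a whole was not offset between the lines. Its 576 tested genes had a median difference of -0.10, within the range of the autosome medians (-0.12 to -0.03), and 231 were positive. Of these 576 genes 6 were called, a share near the 1.19% over all tested genes. They were Xist and 5 others. Ldoc1, a gene derived from a retrotransposon, had levels of -2.29 and -2.11 in 129Ba1 and of -5.61 and -5.07 in 129Ba2, at least 2.87-fold higher in 129Ba1 (adjusted p = 0.00133). Xlr3b had levels of 0.79 and 1.19 in 129Ba1 and of -1.90 and -1.08 in 129Ba2 (2.48 ± 0.43, adjusted p = 0.0206). Phex rose too, and Nxf2 and Mageb1, which are known from germ cells, fell. The count of X-linked calls was 6 in the fit described, 3 with normexp, 2 without 129Ba1 replicate 1, 13 without 129Ba2 replicate 1 and 1 without 129Ba2 replicate 2; Ldoc1, Phex, Nxf2 and Mageb1 were outside the rule for named genes and were named because the count is small.

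On the autosomes, the genes that fell in 129Ba1 included enzymes and targets of the amino acid stress response. In this response the factor ATF4 raises genes for amino acid synthesis and uptake when amino acids are short or proteins misfold. Asns, asparagine synthetase, had levels of 6.42 and 7.04 in 129Ba1 and of 7.75 and 8.24 in 129Ba2 (-1.26 ± 0.26, adjusted p = 0.0326). Psat1, which makes phosphoserine on the way to serine, had levels of 6.05 and 6.37 in 129Ba1 and of 7.14 and 7.38 in 129Ba2 (-1.05 ± 0.24, adjusted p = 0.0437). Vldlr, a lipoprotein receptor, had levels of 1.28 and 1.62 in 129Ba1 and of 2.41 and 2.81 in 129Ba2 (-1.16 ± 0.24, adjusted p = 0.0326), while another Vldlr probe gave a difference of -0.01. The arrays of the lines did not overlap in any of the 3 genes, which is nearly given by a call.

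Of 13 list members 12 were tested, 3 fell, none rose, and all 12 had a negative difference (median -0.94). Called falls made up 0.391% of all tested genes. Both 129Ba1 arrays lay below both 129Ba2 arrays in all 12, against 33.5% of all tested genes. The response factor Ddit3 (-1.19 ± 0.32, adjusted p = 0.0698) and Atf4 itself (-0.61 ± 0.32, adjusted p = 0.351) were not called, nor was the serine pathway enzyme Phgdh (-0.59 ± 0.21, adjusted p = 0.170). Psph, which completes serine synthesis, is not a list member and was picked after its values were seen: it had levels of 3.66 and 4.33 in 129Ba1 and of 5.01 and 5.56 in 129Ba2 (-1.29 ± 0.31, adjusted p = 0.0488). In all 12 tested members the arrays stood in the exact reverse of the order of the fibroblast sum, which held for 3019 of all 15090 tested genes, and the part of fibroblast RNA in the difference was not tested. The count of 3 was 0 without 129Ba1 replicate 1 or 129Ba2 replicate 2, 1 without 129Ba1 replicate 2, 5 without 129Ba2 replicate 1 and 1 with normexp, and the median stayed between -1.12 and -0.71 over these settings.

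ATF4 binds C/EBP-ATF composite elements, and the promoters of Asns and Psat1 are shown because both genes fell. The 250 bases before the RefSeq start (GRCm38.p6) are given in the direction of the gene, with matches to TGNTGNAA on either strand in capitals. Among 32851 promoter windows of this length 12.8% held a match, and among the 11 list genes with an entry 7 did at any of their start sites, so that the shares are not counted alike; a match is a string of letters and not a shown binding site. The Asns window is chr6:7693210-7693459 and the Psat1 window chr19:15925060-15925309, both on the minus strand. A second Psat1 start site in RefSeq, with the window chr19:15924623-15924872, held 0 matches and is not shown.
Asns: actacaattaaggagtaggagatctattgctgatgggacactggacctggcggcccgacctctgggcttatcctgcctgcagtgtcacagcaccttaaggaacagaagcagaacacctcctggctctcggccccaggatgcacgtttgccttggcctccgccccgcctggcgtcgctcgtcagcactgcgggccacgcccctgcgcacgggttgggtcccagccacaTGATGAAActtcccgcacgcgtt
Psat1: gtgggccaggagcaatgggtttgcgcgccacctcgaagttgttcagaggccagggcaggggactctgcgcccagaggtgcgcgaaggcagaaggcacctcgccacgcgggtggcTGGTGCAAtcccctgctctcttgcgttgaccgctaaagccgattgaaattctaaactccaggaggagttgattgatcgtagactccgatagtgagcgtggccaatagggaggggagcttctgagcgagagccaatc

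Of the glycolysis and hypoxia list, Ddit4, Bnip3 and Ankrd37 fell in 129Ba1, and no glycolytic enzyme passed the test. Ddit4, an inhibitor of mTORC1 induced by stress, had levels of 5.31 and 5.63 in 129Ba1 and of 6.48 and 7.53 in 129Ba2 (-1.54 ± 0.29, adjusted p = 0.0266). Bnip3, a mitochondrial protein of mitophagy, had levels of 4.67 and 5.20 in 129Ba1 and of 6.08 and 6.06 in 129Ba2 (-1.14 ± 0.26, adjusted p = 0.0461). Ankrd37, a target of hypoxia-inducible factors, had levels of 0.48 and 0.80 in 129Ba1 and of 1.69 and 1.77 in 129Ba2 (-1.09 ± 0.21, adjusted p = 0.0280). The lines did not overlap in these genes, which is nearly given by a call and held in this direction for 33.5% of all tested genes.

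Of the 16 list members, all tested, these 3 fell, none rose and 14 were negative (median -0.59 against -0.08 over all tested genes). Called falls made up 0.391% of all tested genes. Vegfa, the vascular growth factor, gave -0.83 ± 0.27 (adjusted p = 0.125), and the glycolytic enzymes Pgk1 and Ldha gave -0.58 ± 0.25 (adjusted p = 0.234) and -0.39 ± 0.19 (adjusted p = 0.315). Adm (0.40) and P4ha1 (0.09) were the 2 positive members. In 10 of the 16 the arrays stood in the reverse of the fibroblast order. The count of 3 was 0 without 129Ba1 replicate 1 or 129Ba2 replicate 2, 1 without 129Ba1 replicate 2, and 2 without 129Ba2 replicate 1 or with normexp.

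Hypoxia-inducible factors bind elements with the core ACGTG, which is marked in capitals on either strand in the 250 bases before the starts of Bnip3 (chr7:138909507-138909756, minus strand) and Ankrd37 (chr8:45999851-46000100, minus strand). Of this list, only the promoters of these 2 genes and of Ddit4 were searched, because these genes were called. All 3 held a match, against 16.6% of the 32851 windows. The other list members were not searched, so this comparison says nothing about the list. A match is a string of letters and not a shown binding site.
Bnip3: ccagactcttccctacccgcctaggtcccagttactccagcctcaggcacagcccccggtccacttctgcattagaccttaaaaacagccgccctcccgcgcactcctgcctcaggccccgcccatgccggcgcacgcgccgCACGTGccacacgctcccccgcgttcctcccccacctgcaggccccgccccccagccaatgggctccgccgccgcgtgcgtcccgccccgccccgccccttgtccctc
Ankrd37: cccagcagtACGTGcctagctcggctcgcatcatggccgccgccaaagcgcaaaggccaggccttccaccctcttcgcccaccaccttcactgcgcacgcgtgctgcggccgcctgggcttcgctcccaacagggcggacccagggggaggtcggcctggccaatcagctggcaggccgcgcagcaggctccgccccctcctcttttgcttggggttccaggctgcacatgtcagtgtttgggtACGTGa

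Metallothioneins, which bind zinc and copper, and a zinc exporter rose in 129Ba1. Mt2 had levels of 7.06 and 6.79 in 129Ba1 and of 5.34 and 4.50 in 129Ba2 (2.00 ± 0.35, adjusted p = 0.0216). Mt1 had levels of 6.86 and 6.59 in 129Ba1 and of 5.47 and 4.56 in 129Ba2 (1.71 ± 0.30, adjusted p = 0.0225). Slc30a1, which carries zinc out of the cell, had levels of -0.03 and 0.21 in 129Ba1 and of -1.0 and -1.25 in 129Ba2 (1.21 ± 0.22, adjusted p = 0.0231). In all 3 genes the 129Ba1 arrays lay above both 129Ba2 arrays, which is nearly given by a call and held for 23.7% of all tested genes. Mt2 met the rule for named genes, and Mt1 and Slc30a1 were added after their values were seen. The metal factor MTF1 binds elements read here as TGCNCNC, and the promoter windows of Mt1 (chr8:94178839-94179088, plus strand) and Mt2 (chr8:94172368-94172617, plus strand) are shown with matches on either strand in capitals. All 3 genes held a match, against 44.4% of windows, so that a match carries little information. Mt2 held 5 matches and Mt1 held 1. The pattern is loose, and a match is a string of letters and not a shown binding site.
Mt1: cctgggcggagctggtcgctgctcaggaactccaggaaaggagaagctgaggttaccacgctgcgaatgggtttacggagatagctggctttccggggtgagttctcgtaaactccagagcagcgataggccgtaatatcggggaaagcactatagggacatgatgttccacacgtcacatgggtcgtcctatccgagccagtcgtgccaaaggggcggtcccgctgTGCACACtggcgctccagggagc
Mt2: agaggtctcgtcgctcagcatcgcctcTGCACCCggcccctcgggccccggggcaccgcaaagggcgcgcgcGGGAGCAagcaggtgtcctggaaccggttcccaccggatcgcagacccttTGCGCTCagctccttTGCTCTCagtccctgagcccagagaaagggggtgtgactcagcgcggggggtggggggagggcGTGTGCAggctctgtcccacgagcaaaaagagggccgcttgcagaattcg

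The EGF receptor ligands Hbegf and Ereg and the feedback inhibitors Spry2 and Spry4 rose. Hbegf, heparin-binding EGF-like growth factor, had levels of 1.16 and 0.67 in 129Ba1 and of -0.63 and -1.33 in 129Ba2 (1.89 ± 0.26, adjusted p = 0.0053). Ereg, epiregulin, had levels of 0.41 and -0.01 in 129Ba1 and of -1.48 and -3.96 in 129Ba2 (2.92 ± 0.61, adjusted p = 0.0335), and 1 of the 2 129Ba2 arrays was well above background for it. Spry2, a Sprouty protein that dampens signalling of receptor tyrosine kinases, had levels of 0.38 and 0.06 in 129Ba1 and of -0.97 and -1.67 in 129Ba2 (1.54 ± 0.29, adjusted p = 0.0275). Its relative Spry4 had levels of -2.18 and -2.60 in 129Ba1 and was not well above background in 129Ba2, at least 2.52-fold higher in 129Ba1 (adjusted p = 0.0347). Spry2 and Spry4 were the called members among 19 tested genes of the primed epiblast list, whose median was 0.18. Called rises made up 0.802% of all tested genes. Other members that report FGF signalling, Etv4 (0.42 ± 0.31, adjusted p = 0.530) and Etv5 (0.30 ± 0.21, adjusted p = 0.517), were not called.

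Of the Wnt genes, the ligand Wnt3 and the factor Lef1, which acts with beta-catenin, rose. Wnt3 had levels of -1.99 and -2.16 in 129Ba1 and of -2.83 and -3.62 in 129Ba2 (1.15 ± 0.27, adjusted p = 0.0471), with 1 of the 2 129Ba2 arrays well above background. Lef1 had levels of 1.84 and 1.66 in 129Ba1 and of 0.73 and 0.63 in 129Ba2 (1.08 ± 0.24, adjusted p = 0.0424). Both were the called member of their list, 1 of 16 tested streak and mesoderm genes (median 0.25) and 1 of 16 tested Wnt targets (median -0.30), and 7 of the 16 Wnt targets were positive. Called rises made up 0.802% of all tested genes. Axin2, a general target of Wnt signalling, was not well above background on any of the 4 arrays, and the streak factor T was so on 1 129Ba1 array only.

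Among p53 targets and cell cycle inhibitors 2 of 16 rose and none fell (median 0.50). Called rises made up 0.802% of all tested genes. Cdkn2b, the inhibitor p15 of the cyclin D kinases, had levels of 3.14 and 2.64 in 129Ba1 and of 1.75 and 0.22 in 129Ba2 (1.90 ± 0.44, adjusted p = 0.0458). Perp, a p53 target in desmosomes, had levels of 4.18 and 3.96 in 129Ba1 and of 3.33 and 2.32 in 129Ba2 (1.25 ± 0.26, adjusted p = 0.0341). Cdkn2a (1.28 ± 0.41, adjusted p = 0.124) and Cdkn1a (1.26 ± 0.39, adjusted p = 0.105) were not called, and Bax, another p53 target, gave -0.01 ± 0.31. In 10 of the 16 members the arrays followed the order of the fibroblast sum, the 2 called genes included. The 12 proliferation genes were all negative (median -0.31) with none called.

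Hox genes, which pattern the trunk and stay on in fibroblasts according to their origin, were mostly higher in 129Ba1. Of 30 Hox and Cdx genes 25 were tested, 21 were positive, and the median was 0.93 (0.12 with normexp). Of the 25, 1 was called, while called rises made up 0.802% of all tested genes. Hoxa10 was called, with levels of -1.95 and -2.12 in 129Ba1 and of -4.86 and -5.57 in 129Ba2, at least 3.22-fold higher in 129Ba1 (adjusted p = 0.0181). Both of its arrays were well above background in 129Ba1 and in no other group. Hoxa10 was thus tested only through the line in which it was high. Hoxd13 (2.09 ± 0.75, adjusted p = 0.163) and Hoxb9 (2.09 ± 0.80, adjusted p = 0.193) were not called. In 13 of the 25 the arrays followed the order of the fibroblast sum, and 2 of the 25 were well above background on all 4 arrays of E5.5 and E6.5 epiblast.

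**Figure D5:**
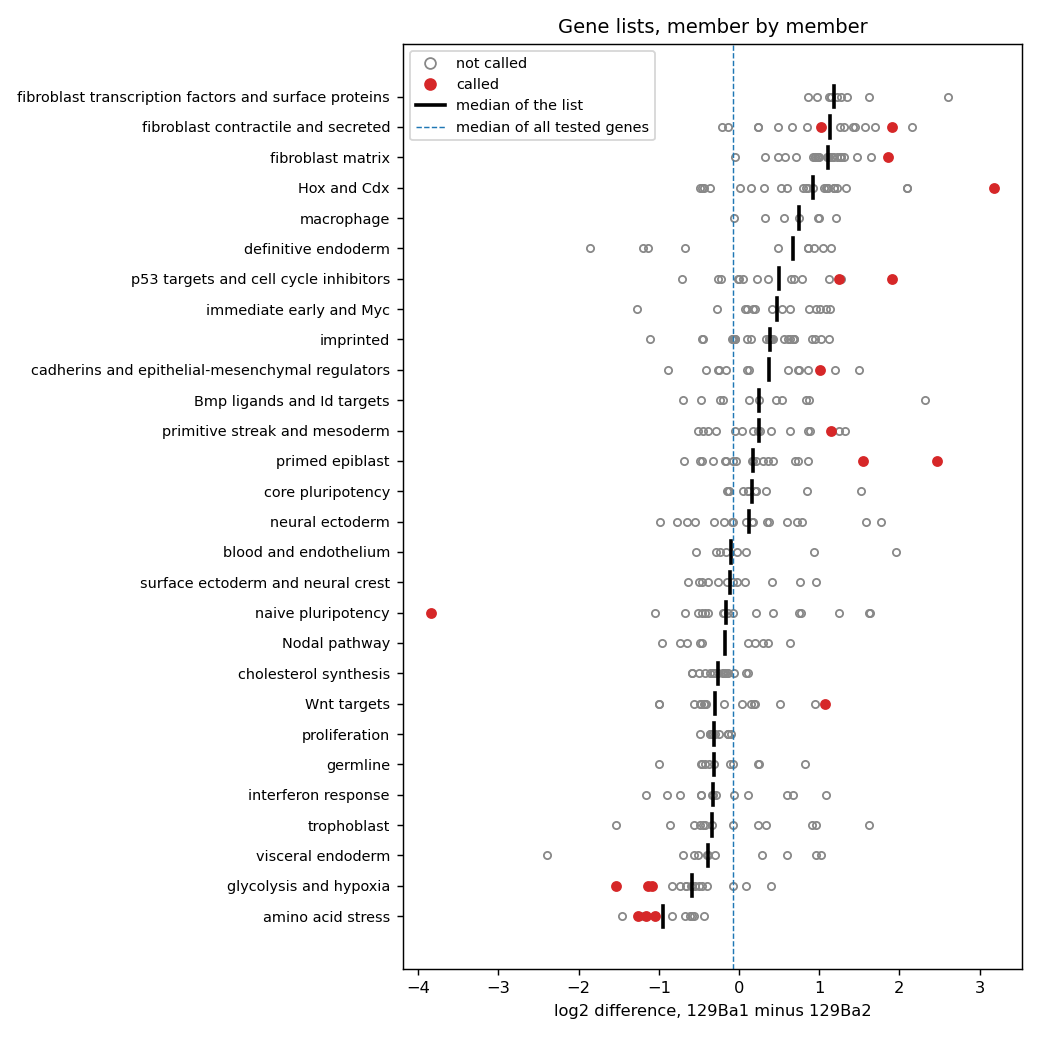
Difference of each tested member (129Ba1 minus 129Ba2, log2) in 28 gene lists, ordered by the list's median (black bar); called members are filled red, others open grey, and the dashed line is the median of all tested genes (-0.08). The 3 fibroblast lists have the highest medians (1.11 to 1.19) and the amino acid stress list the lowest (-0.94).

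Further large rises among genes measured on all 4 arrays were those of Tnc, Sema7a and Aqp1. Tnc, the matrix protein tenascin C, had levels of 1.73 and 1.1 in 129Ba1 and of 0.14 and -1.16 in 129Ba2 (1.93 ± 0.45, adjusted p = 0.0460). Sema7a, a semaphorin anchored in the membrane, had levels of 2.06 and 1.57 in 129Ba1 and of 0.59 and -1.30 in 129Ba2 (2.17 ± 0.52, adjusted p = 0.0488). Aqp1, a water channel, had levels of -0.17 and -0.75 in 129Ba1 and of -2.19 and -3.21 in 129Ba2 (2.24 ± 0.47, adjusted p = 0.0347). Neither Tnc nor Aqp1 was detected above background in the E5.5 and E6.5 epiblast. The GTPase Rhoj (1.91 ± 0.45), the guanine deaminase Gda (1.99 ± 0.36) and the intermediate filament Vim (1.01 ± 0.20) rose as well, Vim with levels of 6.95 and 6.74 in 129Ba1 and of 6.25 and 5.43 in 129Ba2. Nhlh1 (2.63 ± 0.61, adjusted p = 0.0460) and Pear1 (2.15 ± 0.51, adjusted p = 0.0488) were called on 1 probe each, while their other probes gave -0.65 and 0.20.

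Several rises were seen only as bounds, since no 129Ba2 array was well above background. Samd5 was at least 4.21-fold higher in 129Ba1 and the collagenase Mmp1b at least 3.58-fold. Smaller bounds held for the matricellular protein Ccn3 (at least 2.77-fold), the receptor Mrgprx2 (1.86-fold), the T-box factor Tbx1 (1.85-fold), the noncoding RNA Morrbid (1.84-fold), the succinate receptor Sucnr1 (1.47-fold) and the G protein subunit Gna14 (1.20-fold). Mmp1b, Ccn3, Mrgprx2, Morrbid and Sucnr1 had both arrays well above background in 129Ba1 and in no other group. They were thus tested only through the line in which they were high. Gna14 had levels of -3.41 and -3.51 in 129Ba1 and was at background on both 129Ba2 arrays (adjusted p = 9.23e-05), and its call was lost with normexp (difference 0.05, adjusted p = 0.944).

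Among the largest falls outside the stress lists were Tjp3, Cldn3 and Cyp2s1. Tjp3, a scaffold of tight junctions, had levels of 0.84 and 1.05 in 129Ba1 and of 2.19 and 3.03 in 129Ba2 (-1.67 ± 0.35, adjusted p = 0.0335). Cldn3, a claudin of tight junctions, had levels of -0.18 and -0.01 in 129Ba1 and of 1.02 and 1.64 in 129Ba2 (-1.43 ± 0.26, adjusted p = 0.0250). Cyp2s1, a cytochrome P450, had levels of -2.51 and -1.72 in 129Ba1 and of -0.33 and 0.18 in 129Ba2 (-2.04 ± 0.34, adjusted p = 0.0189). The general epithelial genes Cdh1 (0.13 ± 0.17, adjusted p = 0.748) and Epcam (-0.25 ± 0.22, adjusted p = 0.611) were not called. The junctophilin Jph3 (-1.50 ± 0.30), the deubiquitinase Otub2 (-1.38 ± 0.28), the antiviral family member Oas1c (-1.39 ± 0.29), the NAD synthetase Nadsyn1 (-1.34 ± 0.24), Klhdc9 (-1.37 ± 0.31) and Plk5 (-1.30 ± 0.30) fell too. The lymphocyte receptor Cd6 (-1.39 ± 0.19) and the calcium sensor Cabp1 (-1.55 ± 0.31) were called on 1 probe each, while their other probes gave 0.05 and -0.37.

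Zfp42 (Rex1), a marker of naive pluripotency that EpiSCs usually lack, was seen in 129Ba2. Its levels were -6.13 and -4.76 in 129Ba1 and -0.38 and -2.82 in 129Ba2, at least 5.99-fold lower in 129Ba1 (adjusted p = 0.0189). The signal in 129Ba2 was far below that of mESCs, with a mean level of -1.60 against 6.80 in J1 and 6.68 in R1. In E5.5 epiblast the mean level was 0.38. The 129Ba2 arrays lay far apart, yet both were well above background and neither 129Ba1 array was. Zfp42 was the called member among 18 tested naive genes, whose median was -0.16. Called falls made up 0.391% of all tested genes. Klf4 (1.64 ± 0.50, adjusted p = 0.103) and Esrrb (1.25 ± 0.46, adjusted p = 0.174) were not called and had higher values in 129Ba1; Klf4 was called with normexp. Krt12, a keratin, had levels of -6.24 and -6.37 in 129Ba1 and of -1.80 and -2.61 in 129Ba2, at least 3.94-fold lower in 129Ba1 (adjusted p = 0.00243), while another Krt12 probe gave -0.52.

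The remaining bounds among the falls were at least 3.67-fold for the olfactory receptor gene Olfr397 (another probe -0.48), 3.49-fold for Fam221b, 3.19-fold for Lypd3, 2.35-fold for Lrrc29, 1.66-fold for Pdzk1ip1 and 1.36-fold for Dcdc2a, the last 2 measured above background on 1 129Ba2 array each. Other probes gave -0.28 for Pdzk1ip1 and -0.46 for Dcdc2a. Olfr397 and Fam221b had both arrays well above background in 129Ba2 alone, so they were tested only through the line in which they were high. Mymx and Klk1b4 belonged to 4 called genes at background in both lines, and no fold is given for them.

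Of the lists for other cell types, only that of streak and mesoderm held a call (Wnt3, 1 of 16). None of the 7 tested macrophage genes, 8 blood and endothelium genes, 10 definitive endoderm genes or 18 neural genes passed the test. Nor did any of the 12 surface ectoderm and neural crest genes, 13 trophoblast genes, 11 visceral endoderm genes or 11 germline genes. Since only 1.19% of all tested genes were called, lists this short would hold few or no calls, and their absence carries little information. The macrophage list had the highest median of these (0.75), with the lysozyme Lyz2 at -0.51 and -0.27 in 129Ba1 and at -1.02 and -1.74 in 129Ba2 (0.99 ± 0.61, adjusted p = 0.442) and the leukocyte marker Ptprc at -4.13 and -3.92 in 129Ba1 and at -4.98 and -3.73 in 129Ba2 (0.33 ± 0.57, adjusted p = 0.819). The summed signal of the definitive endoderm list was 120 and 134 in 129Ba1 and 71.7 and 53 in 129Ba2, and most of it came from Trh (thyrotropin-releasing hormone), with levels of 6.90 and 7.06 in 129Ba1 and of 6.15 and 5.71 in 129Ba2. That of the blood and endothelium list was 39.3 and 31.5 in 129Ba1 and 27.4 and 24.5 in 129Ba2. Both sums were higher on each 129Ba1 array than on each 129Ba2 array. The same held for the macrophage list (6.27 and 6.04 in 129Ba1, 5.55 and 5.24 in 129Ba2). It also held for the neural ectoderm list (32.6 and 31.6 in 129Ba1, 28.3 and 28.1 in 129Ba2). It did not hold for the visceral endoderm and trophoblast lists. The part of these cell types in the called genes was not tested.

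Core identity genes did not pass the test in either direction. Pou5f1 had levels of 5.68 and 6.06 in 129Ba1 and of 5.86 and 6.14 in 129Ba2 (-0.13 ± 0.32, adjusted p = 0.875). Sox2 had levels of 2.77 and 2.67 in 129Ba1 and of 2.38 and 2.83 in 129Ba2 (0.12 ± 0.15, adjusted p = 0.738). Fgf5, a marker of the primed epiblast, had levels of 3.69 and 3.88 in 129Ba1 and of 3.11 and 3.07 in 129Ba2 (0.70 ± 0.22, adjusted p = 0.116). For Pou5f1 and Sox2 the arrays of the lines overlapped, and for Fgf5 they did not, as for 23.7% of all tested genes in that direction. Otx2 (-0.33 ± 0.20), Dnmt3b (-0.04 ± 0.23), Nanog (-0.14 ± 0.31), Sox1 (-0.08 ± 0.26) and the gene Wt1 (0.18 ± 0.26) were not called. The endoderm factors Sox17 (-0.68 ± 0.88) and Foxa2 (0.94 ± 0.67) were at or near background in both lines. Pou5f1, Sox2, Fgf5 and Otx2, which define the EpiSC label, were thus well above background on all 4 arrays. Of the naive genes known to be low in EpiSCs, Klf4 and Esrrb were also well above background on all 4, with mean levels of 1.22 and -1.75 in 129Ba1, of -0.42 and -3.00 in 129Ba2 and of 4.79 and 6.87 in J1 mESCs.

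The called genes were also set beside the other EpiSC lines. The mean of BNa17, the third line established with a Wnt inhibitor, was nearer to 129Ba2 for 103 of the 121 risen genes (85.1%) and 43 of the 59 fallen genes (72.9%), against 64.1% of all tested genes. The mean of 129C1 was nearer to 129Ba2 for 93 of the risen (76.9%) and 39 of the fallen genes (66.1%), against 62.3% of all tested genes. The mean of Wt1, with a fibroblast sum between those of BNa17 and 129Ba1, was nearer to 129Ba2 for 54 of the 121 risen genes (44.6%) and 35 of the 59 fallen genes (59.3%), against 51.4% of all tested genes.

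A set of 8 genes was called in all 4 fits that left out an array. These 8 were the Y-linked Eif2s3y, Ddx3y and Uty, the X-linked Ldoc1, and the autosomal Gna14, Gprc5a, Krt12 and the Riken transcript 1700009N14Rik. Gprc5a, an orphan receptor induced by retinoic acid, had levels of 1.57 and 1.19 in 129Ba1 and of 0.19 and -0.05 in 129Ba2 (1.31 ± 0.14, adjusted p = 0.000628), and was measured well above background on all 4 arrays; it, Ldoc1 and 1700009N14Rik are named because they belong to this count. All of the 8 but Krt12 were higher in 129Ba1. Krt12 was well above background in 129Ba2 and in none of the other groups, so it was tested only through the line in which it was high, and its other probe gave -0.52. Of the 62 called genes that the rule for named genes picks, 6 kept it without 129Ba1 replicate 1, 21 without 129Ba1 replicate 2, 55 without 129Ba2 replicate 1 and 6 without 129Ba2 replicate 2. With normexp 33 of these calls were lost, among them those of Mymx and Klk1b4, all those given as bounds except Eif2s3y and Zfp42, and those of Cabp1, Oas1c, Cd6, Plk5, Igfbp4, Wnt3, Lef1, Spry2, Ankrd37, Vldlr and Psat1.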

How the data were processed

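Per the submitters' processing notes, Agilent Feature Extraction 10.5.1.1 was used on the scans. Per the file headers, the deposited raw files (1 for each array) hold the processed signal as a linear intensity with the background subtracted. The authors also deposited a set of log2 values that matched the raw files as scaled to each array's 75th percentile and centred on each probe's median (an alternative here). Log2 processed signal minus each array's 75th percentile was used. Probes were named through RefSeq accessions; a gene took its probe with the highest mean signal among those with an unflagged spot on every array, leaving 20616 genes. Fits with limma 3.58.1 in R 4.3.3 (data read by version 1.17.8 of data.table) used all 24 arrays as 12 groups and 15090 genes for which both arrays of some group were well above background, two-sided; every adjusted p is from limma.

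Named genes followed a rule: the 12 largest rises and 12 largest falls measured on all 4 arrays, the 6 largest bounds each way, the 10 largest autosomal rises and falls with r below 0.5 to Col1a1 and Dcn, up to 6 called genes per list, and a set of markers given always; Tsix and some other genes that meet the rule are not reported here. In motifs N stands for any base. The genes and the 30 lists were chosen with earlier results of these data known, and the fits were tested on simulated data. The alternatives were normexp (offset 50, on median and background signals, as the files used hold no mean signal), quantile normalization, the authors' values, 2 other filters on dim probes, the mean of a gene's probes, a variance model with trend, no fold minimum, fewer arrays, replicate numbers as a block and leaving out each array. The number of arrays limits the precision.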

Additional observations from a re-analysis of the deposited data

How the results depend on the processing

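The summed fibroblast signal kept its direction under every alternative run for it (log2 difference 0.64 to 1.33 when an array was left out, 0.98 in the main setting), and no named gene changed sign past the threshold. Counts of calls moved. The 180 calls became 54 with no filter on dim probes (48 of them autosomal genes outside the lists, 0 fibroblast, 3 X-linked), 1 in a fit of only the 4 arrays (0 autosomal, 0 fibroblast, 0 X-linked) and 7 in a fit of the 8 arrays of the slide (4 autosomal, 0 fibroblast, 0 X-linked), in which fewer arrays enter the spread; unadjusted p was below 0.05 for 3016 and 1936 genes in the last 2 fits. With an array left out, all calls ranged from 12 to 487, the 168 autosomal calls from 8 to 449, the 3 fibroblast calls from 0 to 21 and the 6 X-linked calls from 1 to 13. With normexp 18 fibroblast and 3 X-linked genes were called, and 63 of its 184 calls were among the 180. Fibroblast calls were 8 when genes had to be well above background in 129Ba1 or 129Ba2, and 10 with a trend and robust fitting. The cause of these moves was not tested.

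With replicate number as a block (replicate block) 157 genes were called, 148 of them among the 180; the labels do not pair the arrays, and deviations of same-numbered arrays correlated at 0.159. Slide could not be fitted as a fixed or random block, since every group lies on 1 slide (design rank 12 with and without slides), so a slide block was not run. Of the 62 called genes picked by the naming rule, 62 kept it with the authors' values, 48 with quantile normalization, 29 with normexp and 6 to 55 with an array left out; where 1 array remains in a line it is assumed to vary like the other groups. Signal near background limits the values given as bounds.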
